A study of Homo sapiens with 24 samples.

Results

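The genes described here are 44 antioxidant genes and targets of the transcription factor NRF2, with NRF2 itself and its regulators, chosen by name from a fixed list. That list was set with earlier results of these data known. Every probe set whose annotation gave 1 of these symbols and no other was used. Of the 44 genes, 42 had such a probe set, 87 in all, among 19775 genes and 54613 probe sets on the array. PRDX5 and FTH1 were not analysed here. The filter on low values passed 76 of the 87 probe sets, which left 40 members for testing among 12008 genes. HMOX1 and GPX2 did not pass it, and their values are given as measured.

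NRF2, the product of NFE2L2, is held in the cytoplasm by KEAP1, which hands it over for degradation. When oxidants or electrophiles modify KEAP1, NRF2 accumulates, pairs with a small MAF protein and binds antioxidant response elements in the promoters of its target genes. These targets make and recycle glutathione, keep thioredoxin and the peroxiredoxins reduced, detoxify quinones and epoxides, and break down heme and store the iron that is freed. Prostate epithelium is a target tissue of 1,25(OH)2D, the active hormone made from vitamin D, which acts through a nuclear receptor.

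RWPE1 is an immortalized line of normal human prostate epithelial cells. Cultures of this 1 line were treated with 100 nM 1,25(OH)2D or with vehicle (ethanol) and harvested after 6, 24 or 48 h, and cultures of the 48 h groups received new medium after 24 h. There were 4 biological replicates in each of the 6 groups, and each of the 24 samples had its own Affymetrix whole-genome array. All values are gcRMA log2 expression values, and a log2 change is the treated mean less the vehicle mean of the same time. A gene was called changed at an adjusted p under 0.05 by limma over all kept probe sets, and each gene was judged by its brightest kept probe set.

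The basal keratins KRT5 and KRT14 had group means of 15.3 to 15.37 and 16.07 to 16.18, and 7 of 7 basal and luminal markers with a probe set passed the filter. KRT15 had group means of 10.28 to 12.42. The 4 basal markers averaged 13.64 in treated and 13.63 in vehicle cultures of 6 h. The 24 h averages were 13.55 (treated) and 14.02 (vehicle), and those of 48 h were 13.63 (treated) and 14.19 (vehicle). The part of this difference in the results was not tested. The luminal keratins KRT8 and KRT18 were bright (12.58 to 13.33 and 14.3 to 14.5) and KLK3, a product of luminal cells, was dim (3.8 to 4.18). The leukocyte and endothelial lists had mean levels of 2.44 to 2.56 and 2.94 to 3.06 over the groups. Of the stromal markers, COL1A1 had group means of 9.58 to 10.18, ACTA2 had 6.29 to 6.85, and DCN, COL3A1 and LUM stayed at or below 3.33. Within groups, 71.9% of the variance lay along 1 component, on which 4 arrays lay far out (over 0.3 in size). These were vehicle replicate 1 at 6 h, and at 24 h vehicle replicate 1 and 1,25(OH)2D replicates 1 and 4. The SD of a member within a group averaged 0.235, 0.325 and 0.139 with 1,25(OH)2D at 6, 24 and 48 h, and 0.254, 0.206 and 0.0947 with vehicle.

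After 6 h, 6 of the 40 members tested had risen and 0 had fallen by limma. The share of all 12008 genes that rose was 2.37%, and 1.04% fell. SAM, re-implemented here, called 8 members, these 6 with GPX3 and HMOX2, all of them higher, and 7.67% of all genes in either direction. The 6 were TXNRD1, NFE2L2, GCLC, MAFF, SRXN1 and MAFG, so that the genes for the NRF2 protein, for both small MAF proteins on the list and for 3 enzymes of the thioredoxin and glutathione systems were higher in treated cultures. The median change of the 40 members was 0.087, against -0.029 over all genes, and 32 of 40 members lay above 0, against 41.4% of all genes. Groups that did not overlap and differed by at least 0.58 were seen for 7 members, the 6 above and HMOX2, against 4.2% of all genes. The arrays measured RNA of whole cultures, so a different share of cells and a different amount of RNA per cell cannot be told apart.

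**Figure D1:**
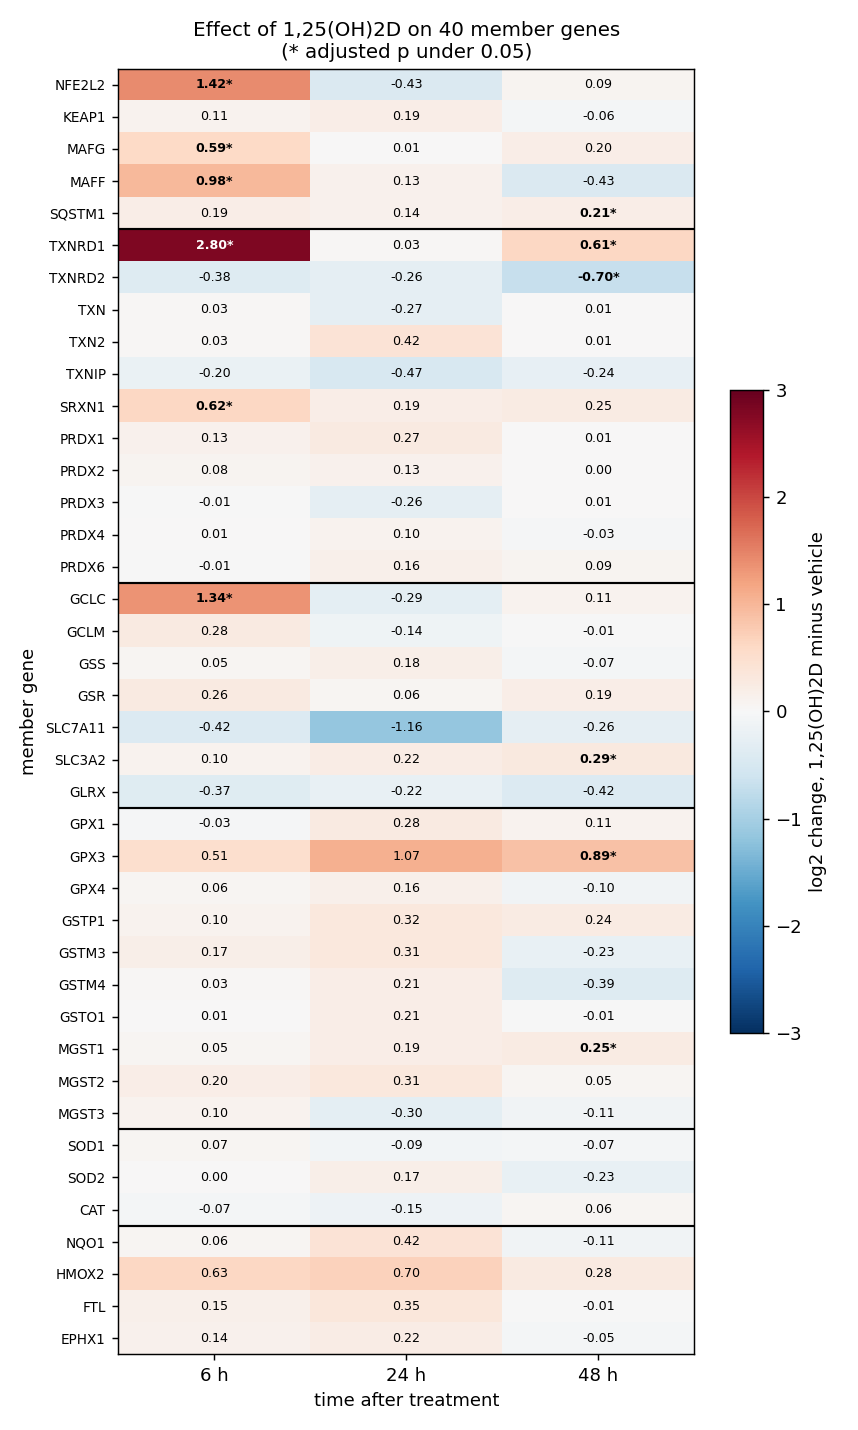
Log2 change with 1,25(OH)2D relative to vehicle for the 40 members tested, one row per gene and one column per time point, with red for higher and blue for lower in treated cultures. Lines divide the groups of genes by role and stars mark adjusted p under 0.05: 6 stars at 6 h, 0 at 24 h and 6 at 48 h.

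TXNRD1, the cytosolic selenoenzyme that reduces thioredoxin with NADPH, was 10.66, 10.60, 11.33 and 11.33 in the 4 cultures treated for 6 h, against 7.85, 8.25, 8.26 and 8.37 in the vehicle cultures. Every treated culture was more than 2 log2 units above every vehicle culture. The mean was 10.98 ± 0.40 with 1,25(OH)2D and 8.18 ± 0.23 with vehicle (SD, n = 4 each). The change was 2.80 (SE 0.21), a 6.95-fold rise with a limma adjusted p of 0.000272, and its call was kept in each of 8 fits that left out 1 array.

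The RefSeq promoter windows (300 bases, 250 before and 50 after a gene's start, build GRCh38.p14) of TXNRD1 are shown because this gene had the largest change. Capitals mark matches to the core of the antioxidant response element, TGACNNNGC, on either strand (GCNNNGTCA on the other).
TXNRD1, upstream start, chr12:104215529-104215828, plus strand: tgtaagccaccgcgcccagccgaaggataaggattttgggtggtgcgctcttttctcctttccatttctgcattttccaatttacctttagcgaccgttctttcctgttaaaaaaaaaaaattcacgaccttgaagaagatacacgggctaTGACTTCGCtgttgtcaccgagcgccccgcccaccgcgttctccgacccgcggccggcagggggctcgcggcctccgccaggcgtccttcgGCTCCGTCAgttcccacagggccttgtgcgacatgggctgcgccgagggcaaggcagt
TXNRD1, downstream start, chr12:104286782-104287081, plus strand: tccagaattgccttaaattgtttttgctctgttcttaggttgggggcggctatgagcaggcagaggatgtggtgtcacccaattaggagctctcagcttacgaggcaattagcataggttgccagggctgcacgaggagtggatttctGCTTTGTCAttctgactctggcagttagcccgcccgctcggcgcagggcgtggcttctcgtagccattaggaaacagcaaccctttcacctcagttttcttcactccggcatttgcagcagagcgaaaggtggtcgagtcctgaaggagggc
The window at the upstream start holds 2 matches, which begin 99 bases and 8 bases before the start, and the window at the downstream start holds 1, at 102 bases. A match was found in 11 of the 56 windows of the 34 members that had one in the table (19.6%), against 13.3% of all 35116 windows. Windows of 1 gene can overlap, and a match is a run of letters, not a measured binding site. The other members with a match were MAFF, KEAP1, GCLM, SLC3A2, GPX2, GSTP1, GSTO1, MGST1 and EPHX1. Of the 6 members that rose at 6 h, all had a window and 2, TXNRD1 and MAFF, had a match.

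NFE2L2, which encodes NRF2, was 11.76, 11.59, 12.29 and 12.15 with 1,25(OH)2D for 6 h, and 10.05, 10.74, 10.44 and 10.88 with vehicle. The lowest treated culture was above the highest vehicle culture. The change was 1.42 (SE 0.22), a 2.67-fold rise (adjusted p = 0.0126 by limma). A dimmer NFE2L2 probe set changed by 1.24 (SE 0.31) without overlap but was not called (adjusted p = 0.102). KEAP1, the adaptor that marks NRF2 for degradation, was 11.06, 11.02, 10.61 and 10.81 with 1,25(OH)2D and 11.07, 10.78, 10.55 and 10.64 with vehicle. The KEAP1 groups overlapped and the change of 0.11 (SE 0.15) was not called.

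The small MAF proteins are the partners with which NRF2 binds DNA. MAFF was 10.70, 10.70, 10.43 and 10.46 with 1,25(OH)2D at 6 h, against 9.98, 9.43, 9.73 and 9.23 with vehicle. MAFG was 8.12, 8.20, 8.15 and 8.29 with 1,25(OH)2D, and 7.67, 7.60, 7.58 and 7.54 with vehicle. Neither gene overlapped between the groups, and the MAFG cultures lay close together in each. MAFF rose by 0.98 (SE 0.17, 1.97-fold, adjusted p = 0.0194) and MAFG by 0.59 (SE 0.077, 1.51-fold, adjusted p = 0.00464). A second MAFF probe set changed by 0.77 (adjusted p = 0.0645), and a second MAFG probe set by 0.16 with overlapping groups (adjusted p = 0.82). The window at 1 of the 2 MAFF starts holds a match to the element's core 122 bases before the start.
MAFF, chr22:38201744-38202043, plus strand, GRCh38.p14: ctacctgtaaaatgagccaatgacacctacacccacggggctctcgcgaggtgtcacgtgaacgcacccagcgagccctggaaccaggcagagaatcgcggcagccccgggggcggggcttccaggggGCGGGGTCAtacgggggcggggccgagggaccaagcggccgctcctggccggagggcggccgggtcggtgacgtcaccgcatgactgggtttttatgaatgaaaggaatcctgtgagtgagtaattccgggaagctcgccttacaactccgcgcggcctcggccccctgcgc
SQSTM1, an autophagy receptor that binds KEAP1, changed by 0.19 (SE 0.23) at 6 h with overlapping groups.

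GCLC encodes the catalytic subunit of glutamate-cysteine ligase, the rate-limiting enzyme of glutathione synthesis. It was 12.18, 12.07, 12.52 and 12.62 in treated cultures at 6 h, against 10.64, 11.19, 10.87 and 11.32 in vehicle cultures. The groups were apart and the rise of 1.34 (SE 0.19) was 2.54-fold (adjusted p = 0.00661). A second GCLC probe set rose by 1.35 as well (adjusted p = 0.0377). GCLM, the modifier subunit of the same enzyme, was 9.31, 9.13, 9.71 and 9.53 with 1,25(OH)2D and 8.94, 9.22, 9.15 and 9.26 with vehicle. The GCLM groups overlapped, and the change of 0.28 (SE 0.14, adjusted p = 0.684) did not pass the test.

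SRXN1, the sulfiredoxin that restores overoxidized peroxiredoxins, was 10.38, 10.38, 10.17 and 10.44 with 1,25(OH)2D at 6 h and 9.88, 9.79, 9.57 and 9.64 with vehicle. The groups did not overlap, and SRXN1 rose by 0.62 (SE 0.10, 1.54-fold, adjusted p = 0.017). HMOX2, the constitutive heme oxygenase, was 11.91, 11.91, 11.62 and 11.61 with 1,25(OH)2D and 11.50, 11.07, 11.17 and 10.78 with vehicle. The HMOX2 groups did not overlap either, but the change of 0.63 (SE 0.16) was not called (adjusted p = 0.113). Without vehicle replicate 1, which stood apart, HMOX2 changed by 0.76 and was called (adjusted p = 0.0306). That array was left out for lying apart, which lowers the spread and favours calls.

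HMOX1, the inducible heme oxygenase and a classical NRF2 target, was near the bottom of the scale. Its values were 2.38, 3.63, 2.59 and 2.50 with 1,25(OH)2D for 6 h, against 2.04, 1.98, 1.95 and 1.96 with vehicle. The groups did not overlap, yet 3 of the 4 treated cultures were under the lowest value the filter kept (3.205). In a fit of all probe sets without the filter, the change of 0.79 (SE 0.26) was not called (adjusted p = 0.549). At 48 h all 8 cultures were between 1.95 and 1.97. GPX2, a selenium-dependent glutathione peroxidase, was between 2.51 and 2.91 on all 24 arrays.

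**Figure D2:**
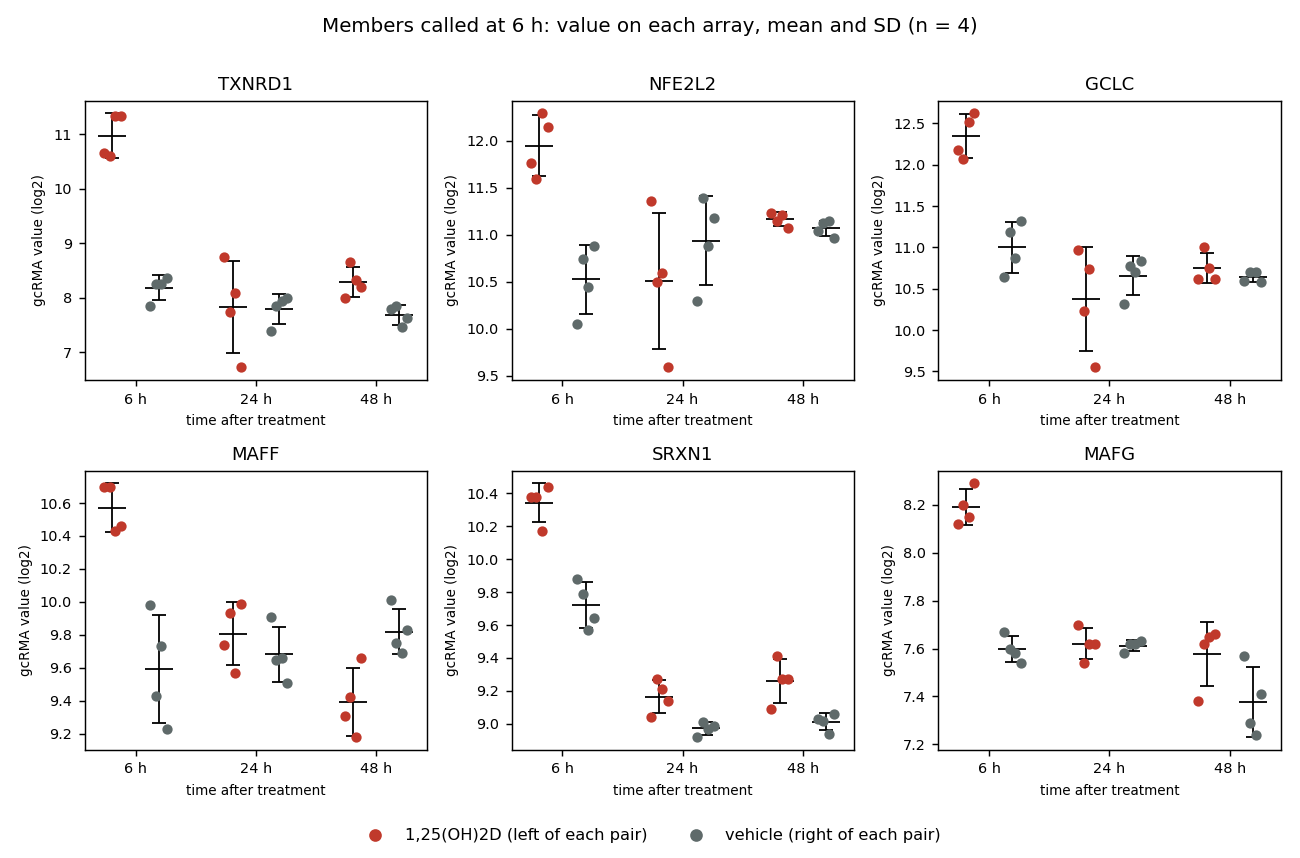
Expression (gcRMA log2, vertical axis) of the 6 members that rose at 6 h on each array, with 1,25(OH)2D in red left of vehicle in grey at 6, 24 and 48 h. Black lines are the group mean and SD (n = 4); the groups are apart for all 6 genes at 6 h, and TXNRD1 is at 10.60 to 11.33 with 1,25(OH)2D.

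The remaining members tested at 6 h changed by -0.42 to 0.51, HMOX2 apart, and none was called by limma. Among the thioredoxin genes, TXN (cytosolic thioredoxin) changed by 0.03, TXN2 (its mitochondrial counterpart) by 0.03, TXNRD2 (mitochondrial thioredoxin reductase) by -0.38 and TXNIP (a thioredoxin inhibitor) by -0.20. The peroxiredoxins PRDX1, PRDX2, PRDX3, PRDX4 and PRDX6, which break down peroxides, lay between -0.01 and 0.13. GSR, which reduces oxidized glutathione, was higher in all treated cultures than in all vehicle cultures but by 0.26 only (adjusted p = 0.389). The cystine transporter SLC7A11 changed by -0.42 and its heavy chain SLC3A2 by 0.10. GSS, the second enzyme of glutathione synthesis, changed by 0.05 and GLRX, a glutaredoxin, by -0.37.

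In the glutathione-using group, GPX3, the secreted glutathione peroxidase, changed by 0.51 at 6 h (adjusted p = 0.242). GPX1, GPX4, GSTP1, GSTM3, GSTM4, GSTO1, MGST1, MGST2 and MGST3, which reduce peroxides or couple glutathione to electrophiles, lay between -0.03 and 0.20. The superoxide dismutases SOD1 and SOD2 and catalase (CAT) changed by 0.07, 0.00 and -0.07. SOD2 rests on 1 probe set, since 4 others carry a second symbol. NQO1 (a quinone reductase), FTL (ferritin light chain) and EPHX1 (microsomal epoxide hydrolase) changed by 0.06, 0.15 and 0.14. Of the 6 roles, only the regulators (3 of 5), the thioredoxin and peroxiredoxin genes (2 of 11) and the glutathione supply genes (1 of 7) held a member called by limma at 6 h.

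Some of the calls at 6 h were lost when 1 array was left out. The changes in such fits were 1.26 to 1.54 for NFE2L2, 0.86 to 1.11 for MAFF and 0.57 to 0.68 for SRXN1. The count dropped to 3 without 1,25(OH)2D replicate 4, when NFE2L2, MAFF and SRXN1 were no longer called. MAFF was also lost without vehicle replicate 2 and without 1,25(OH)2D replicates 1 or 2, and SRXN1 without these or vehicle replicates 3 or 4. The highest adjusted p values in these fits were 0.0538 for NFE2L2, 0.0812 for MAFF and 0.0713 for SRXN1. TXNRD1, GCLC and MAFG were called in all 8 of them.

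After 24 h, 0 of the 40 members was called by limma, against 0.516% of all genes. An unadjusted p under 0.05 was seen for 7 of the 40 members and for 1176 of 12008 genes. The median change was 0.16 over the members and 0.011 over all genes, and 28 of 40 members lay above 0 (51.4% of all genes). The number of members with groups apart by at least 0.58 was 0, against 2.2% of all genes. SAM called 5 members at 24 h (SRXN1, GPX3 and FTL higher, MGST3 and SOD1 lower), against 6.24% of all genes.

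TXNRD1 was 8.75, 7.74, 8.09 and 6.72 with 1,25(OH)2D at 24 h, against 7.39, 7.85, 7.93 and 7.99 with vehicle. Its treated cultures thus lay on both sides of the vehicle cultures, and the change was 0.03 (SE 0.40). NFE2L2 was 11.36, 10.50, 10.59 and 9.59 with 1,25(OH)2D and 10.30, 11.39, 10.88 and 11.18 with vehicle, a change of -0.43 (SE 0.39). In both genes the extremes of the treated cultures were replicates 1 and 4, the arrays that stood apart. SLC7A11, which imports cystine for glutathione synthesis, was 10.85, 9.18, 9.07 and 7.40 with 1,25(OH)2D and 9.25, 10.82, 10.40 and 10.69 with vehicle. Its change of -1.16 (SE 0.71) was not called, and replicates 1 and 4 again were its highest and lowest treated cultures. GPX3 was 10.78, 11.69, 10.99 and 11.94 with 1,25(OH)2D, against 10.93, 10.13, 10.09 and 9.95 with vehicle. Here only vehicle replicate 1 reached into the treated range, and the change was 1.07 (SE 0.32, adjusted p = 0.389).

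Without the 3 arrays of 24 h that stood apart, 2 treated and 3 vehicle cultures remained, and 14 members were called, 11 up and 3 down. Of all genes, 10.6% were then called up and 14.2% down. The 3 arrays were left out for lying far from the others, which lowers the spread in this fit and favours calls. HMOX2 (0.84), GPX3 (1.28), TXN2 (0.54), NQO1 (0.48), GSTM3 (0.46), MGST2 (0.38), GPX1 (0.37), GSTP1 (0.37), PRDX1 (0.35), KEAP1 (0.29) and SRXN1 (0.25) rose in that fit. SLC7A11 (-1.51), TXNIP (-0.56) and MGST3 (-0.38) fell. TXNRD1, NFE2L2, GCLC, MAFF and MAFG were not among the 14.

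After 48 h, 5 members had risen and 1 had fallen by limma, against 5.14% and 6.87% of all genes. GPX3, TXNRD1, SLC3A2, MGST1 and SQSTM1 were higher and TXNRD2 was lower in treated cultures. SAM called 11 members and 16.1% of all genes. It added SRXN1 and GSR as higher and MAFF, TXNIP and GSTM4 as lower, so that 7 were higher and 4 lower. The median change over the members was 0.007, against -0.009 over all genes, and 21 of 40 lay above 0 (45.3% of all genes). Groups apart by at least 0.58 were seen for 3 members, GPX3, TXNRD1 and TXNRD2, against 5.05% of all genes.

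GPX3 was 11.86, 11.48, 11.64 and 11.54 with 1,25(OH)2D at 48 h and 10.73, 10.79, 10.58 and 10.84 with vehicle. The groups were well apart, with a change of 0.89 (SE 0.093, 1.85-fold, adjusted p = 0.00101), and a second GPX3 probe set rose by 0.88 (adjusted p = 0.00522). TXNRD2, the mitochondrial thioredoxin reductase, was 9.18, 9.09, 9.14 and 9.31 with 1,25(OH)2D, against 9.90, 9.91, 9.86 and 9.85 with vehicle. All treated cultures were lower, and TXNRD2 fell by 0.70 (SE 0.056, adjusted p = 0.000248), the 1 member that limma called lower at 48 h. TXNRD1 was 8.0, 8.65, 8.32 and 8.20 with 1,25(OH)2D and 7.80, 7.85, 7.46 and 7.62 with vehicle. The cytosolic reductase thus was higher (0.61, SE 0.15, 1.53-fold, adjusted p = 0.037) where the mitochondrial one was lower.

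SLC3A2, the heavy chain of the cystine transporter and of other amino acid carriers, was 13.50, 13.36, 13.45 and 13.52 with 1,25(OH)2D at 48 h and 13.16, 13.21, 13.24 and 13.04 with vehicle. MGST1, a microsomal glutathione transferase, was 13.87, 14.00, 13.93 and 13.91 with 1,25(OH)2D and 13.71, 13.69, 13.64 and 13.67 with vehicle. SQSTM1 was 10.97, 10.87, 10.94 and 11.04 with 1,25(OH)2D and 10.77, 10.75, 10.78 and 10.70 with vehicle. None of these 3 genes overlapped between the groups, but their changes were small, at 0.29 (SE 0.061, adjusted p = 0.022), 0.25 (SE 0.044, adjusted p = 0.0115) and 0.21 (SE 0.049, adjusted p = 0.0358). Another 2 MGST1 probe sets rose, by 0.28 and 0.46, whereas 2 more changed by 0.23 and -0.03 and were not called (adjusted p = 0.0698 and 0.905). None of the 4 other SQSTM1 probe sets was called. KEAP1 was 10.94, 10.91, 10.94 and 11.02 with 1,25(OH)2D and 11.02, 11.01, 10.98 and 11.06 with vehicle, and its groups overlapped (-0.06, SE 0.042).

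**Figure D3:**
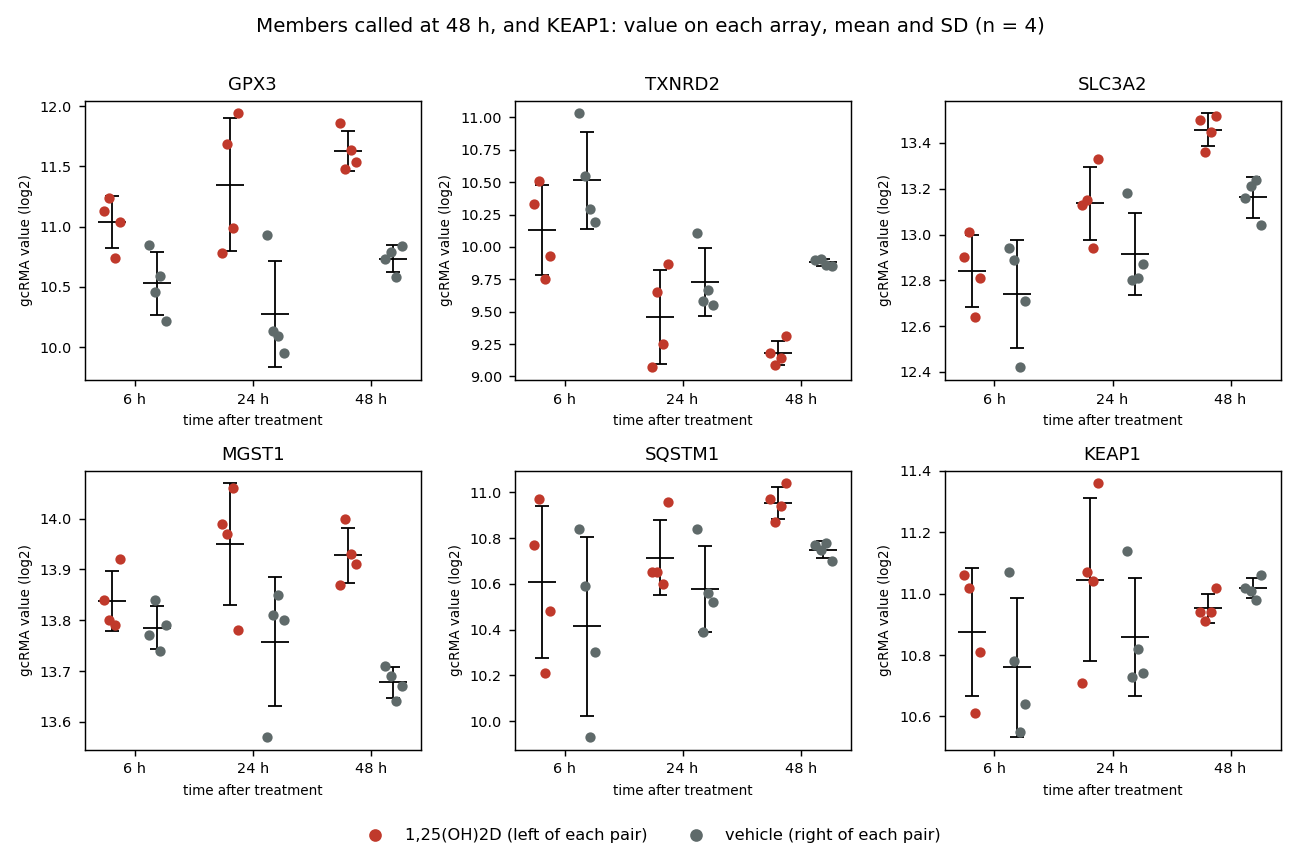
Expression (gcRMA log2, vertical axis) on each array of GPX3, TXNRD2, SLC3A2, MGST1 and SQSTM1, called at 48 h, and of KEAP1, which limma did not call at any time on all arrays. Red points are 1,25(OH)2D and grey points vehicle, with group mean and SD (n = 4); at 48 h the spread is small and the first 5 genes do not overlap between the groups.

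MAFF, which had risen at 6 h, was 9.31, 9.42, 9.18 and 9.66 with 1,25(OH)2D at 48 h and 10.01, 9.75, 9.69 and 9.83 with vehicle. All its treated cultures lay below all vehicle cultures, and the change of -0.43 (SE 0.11) missed the threshold by limma (adjusted p = 0.0527). SRXN1 was 9.09, 9.41, 9.27 and 9.27 with 1,25(OH)2D and 9.03, 9.02, 8.94 and 9.06 with vehicle, without overlap and not called by limma (0.25, adjusted p = 0.0685). NFE2L2 changed by 0.09, GCLC by 0.11, MAFG by 0.20, GCLM by -0.01 and HMOX2 by 0.28, none of them called. The other members changed by -0.42 (GLRX) to 0.24 (GSTP1). The count of 6 calls became 3 without vehicle replicate 1 or without 1,25(OH)2D replicate 3, when TXNRD1, SLC3A2 and SQSTM1 were lost. Leaving out single arrays cost SQSTM1 its call in 7 of 8 fits (all but that without 1,25(OH)2D replicate 2), TXNRD1 also without vehicle replicates 2, 3 or 4 or 1,25(OH)2D replicate 4, and SLC3A2 also without 1,25(OH)2D replicates 1 or 4. The highest adjusted p values in these fits were 0.0968, 0.0962 and 0.0618 by limma. GPX3, TXNRD2 and MGST1 were called in all 8. In 1 fit of all 24 arrays TXNRD1, SLC3A2 and SQSTM1 were not called (adjusted p = 0.443, 0.236 and 0.927 by limma). TXNRD1 was also lost without the filter (adjusted p = 0.107), and SQSTM1 with a stricter filter (0.0567) and with the mean of its probe sets (0.165).

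Whether an effect differed between times was tested on all 24 arrays. The effect at 24 h was smaller than at 6 h for 5 members and larger for 0, against 1.79% and 1.05% of all genes. These were TXNRD1 (difference -2.76, SE 0.41, adjusted p = 0.000327), NFE2L2 (-1.84, SE 0.39, adjusted p = 0.0112), GCLC (-1.63, SE 0.32, adjusted p = 0.00511), MAFF (-0.85, SE 0.20, adjusted p = 0.0271) and MAFG (-0.59, SE 0.11, adjusted p = 0.0028). All but SRXN1 of the 6 members that rose at 6 h thus passed this test. For SRXN1 the difference had the same direction (-0.43) but missed the threshold (adjusted p = 0.0542). From 6 to 48 h the effect became smaller for 3 members and larger for 0, against 2.23% and 1.47% of all genes. The 3 were TXNRD1 (-2.19, adjusted p = 0.00314), MAFF (-1.41, adjusted p = 0.000187) and GCLC (-1.23, adjusted p = 0.0372). The last of these, for GCLC, was lost in 11 of 16 fits without 1 array (adjusted p up to 0.0924). It held there only without vehicle replicates 2 or 4 or 1,25(OH)2D replicates 1 or 2 of 6 h, or without 1,25(OH)2D replicate 2 of 48 h. It was also lost without the filter and with median centring (adjusted p = 0.0806 and 0.0584). The same held with the replicate number as a block and with the mean of the kept probe sets (0.0669 and 0.0902). A second GCLC probe set did not pass (-1.19, adjusted p = 0.277). From 6 to 48 h NFE2L2 changed in effect by -1.32 and MAFG by -0.39, neither called (adjusted p = 0.0869 and 0.0529). A second NFE2L2 probe set did pass (-1.25, adjusted p = 0.0217). The smaller effect of MAFF at 24 h was lost in 6 of 16 fits (adjusted p up to 0.0668), those without vehicle replicates 2 or 4 or 1,25(OH)2D replicates 1 or 2 of 6 h, vehicle replicate 1 of 24 h or 1,25(OH)2D replicate 3 of 24 h. It was lost without the filter too (adjusted p = 0.051), and that of MAFG after a second quantile normalization (0.0889). For this comparison of 24 with 6 h, second probe sets of NFE2L2 (-1.0), MAFF (-0.65) and MAFG (-0.15) did not pass (adjusted p = 0.0992, 0.105 and 0.54), whereas that of GCLC did (-1.87, adjusted p = 0.0329). Between 24 and 48 h the count was 0, against 0.05% of all genes. An unadjusted p under 0.05 was seen there for 3 of 40 members and for 491 of 12008 genes. The effects at 6 h enter both of the first 2 tests, so these are not independent. On all arrays limma called GPX3 at 48 h only, yet its effects at 48 and 6 h were not shown to differ (difference 0.38, SE 0.32, adjusted p = 0.989).

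The 6 groups also allowed each arm to be followed in time. In vehicle cultures 1 member rose and 3 fell at 24 h relative to 6 h, against 5.07% and 3.9% of all genes. TXNIP, which binds and inhibits thioredoxin and responds to glucose, rose by 1.96 (SE 0.14, 3.90-fold, adjusted p = 2.55e-08). At 6 h TXNIP was 11.44, 11.36, 11.17 and 11.22 with 1,25(OH)2D and 11.39, 11.53, 11.18 and 11.90 with vehicle. At 24 h it was 13.42, 13.00, 12.76 and 12.78 with 1,25(OH)2D, against 13.52, 13.48, 13.31 and 13.55 with vehicle. The 48 h cultures had 13.42, 13.59, 13.48 and 13.45 with 1,25(OH)2D, and 13.79, 13.85, 13.72 and 13.54 with vehicle. TXNIP thus was lowest at 6 h in both arms. The members that fell in vehicle were TXNRD2 (-0.79, adjusted p = 0.0135), SRXN1 (-0.75, adjusted p = 4.79e-06) and GCLM (-0.55, adjusted p = 0.00709).

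In 1,25(OH)2D cultures 5 members rose and 8 fell at 24 h relative to 6 h, against 11.2% and 8.19% of all genes. TXNIP (1.69), MGST2 (0.60), NQO1 (0.55), FTL (0.45) and PRDX1 (0.35) rose. The probe sets of NQO1 disagreed, since another 2 changed by 0.71 (adjusted p = 0.0108) and -0.29 (adjusted p = 0.047), and with the mean of the 3 the call was lost (adjusted p = 0.0552). SQSTM1 was called in neither arm by the probe set used, but another 2 rose in both. These rose by 0.67 and 0.53 in vehicle (adjusted p = 0.00684 and 0.0455) and by 0.83 and 0.56 with 1,25(OH)2D (0.000637 and 0.0204). A dimmer MGST1 probe set fell with 1,25(OH)2D (-0.66, adjusted p = 0.022), and the one used was not called. TXNRD1 (-3.15), GCLC (-1.98), NFE2L2 (-1.44), SRXN1 (-1.18), GCLM (-0.97), MAFF (-0.76), TXNRD2 (-0.67) and MAFG (-0.57) fell. TXNIP, TXNRD2, SRXN1 and GCLM were called in the same direction in both arms, whereas TXNRD1, GCLC, NFE2L2, MAFF and MAFG were called in the treated arm and had an effect that differed between these times. Without 1,25(OH)2D replicate 1 at 24 h the count in the treated arm was 20, and the 13 above were among them. Other single arrays cost calls in the treated arm. PRDX1 was lost without replicates 3 or 4 of 6 h or 2 or 4 of 24 h, MGST2 without replicate 3 of 6 h or 4 of 24 h, NQO1 without replicate 4 of 24 h, and TXNRD2 without replicates 1 or 2 of 6 h or 3 of 24 h. Their highest adjusted p values were 0.0895, 0.0582, 0.0553 and 0.0572 by limma. Between 24 and 48 h, where the medium had been replaced, 0 members were called in either arm. The shares of all genes called were 0.741% up and 1.69% down with 1,25(OH)2D, and 0.167% up and 0.258% down with vehicle. In vehicle 4 of 40 members had an unadjusted p under 0.05, as had 1141 of 12008 genes. With 1,25(OH)2D these were 9 of 40 members and 1806 of 12008 genes.

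**Figure D4:**
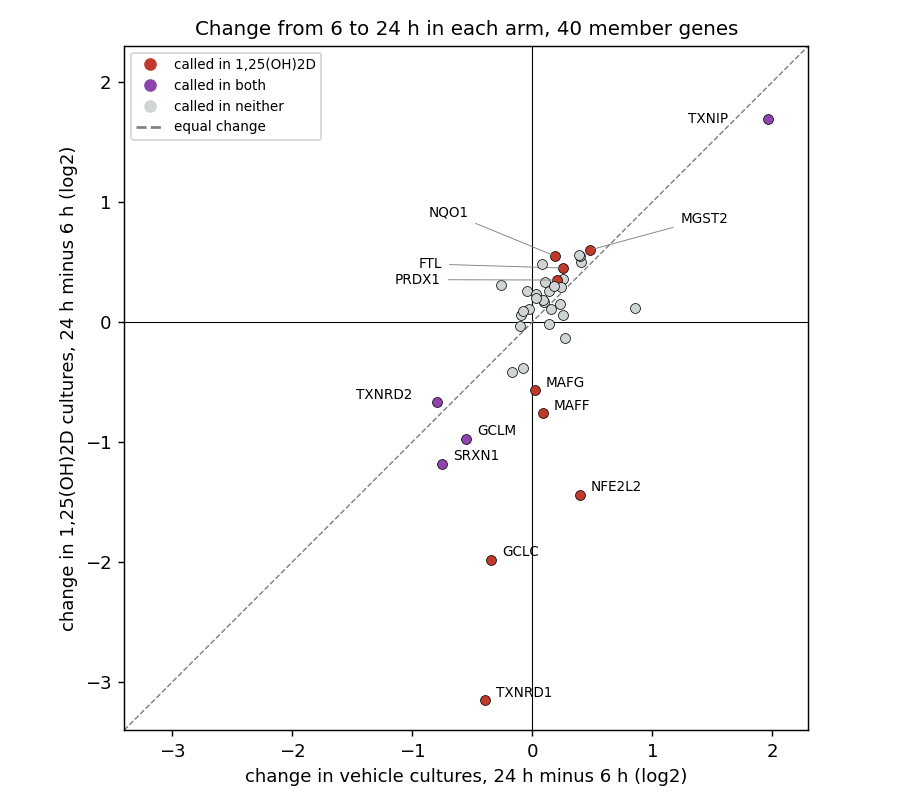
Change from 6 to 24 h (log2) of the 40 members in 1,25(OH)2D cultures (vertical axis) and in vehicle cultures (horizontal axis), with the dashed line for equal change. TXNIP, TXNRD2, SRXN1 and GCLM (purple) were called in both arms, and TXNRD1 lies farthest below the line, at -3.15 with 1,25(OH)2D and -0.39 with vehicle.

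Averaged over the 42 members with a probe set, the mean per array was 10.790 to 11.021 with 1,25(OH)2D and 10.580 to 10.791 with vehicle at 6 h, a difference of 0.252 in which the highest vehicle array reached the lowest treated one. The difference was 0.076 at 24 h, where 2 of the arrays that stood apart were in the treated group, and 0.010 at 48 h. The mean over all 19775 genes differed by -0.007, -0.029 and -0.013. By role, the 5 regulators differed by 0.659 at 6 h, with 10.339 to 10.494 in treated and 9.648 to 9.922 in vehicle cultures, and by 0.006 and 0.003 at 24 and 48 h. The thioredoxin and peroxiredoxin genes differed by 0.280 at 6 h (12.012 to 12.155 with 1,25(OH)2D, 11.757 to 11.896 with vehicle) and by 0.004 and 0.003 later. TXNRD1 alone changed by 2.80 at 6 h, and the median change of the 11 tested genes of this role was 0.03. The glutathione supply genes differed by 0.178, -0.192 and -0.023 at 6, 24 and 48 h, the glutathione peroxidases and transferases by 0.107, 0.245 and 0.062, and the heme, iron, quinone and epoxide genes by 0.355, 0.373 and 0.020. In this last role HMOX1, which did not pass the filter, and HMOX2 changed most at 6 h (0.79 and 0.63), and neither was called by limma. The median change of its 4 tested genes at 6 h was 0.15. The superoxide and hydrogen peroxide genes differed by -0.001, -0.024 and -0.080. These means describe the members and were not tested.

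**Figure D5:**
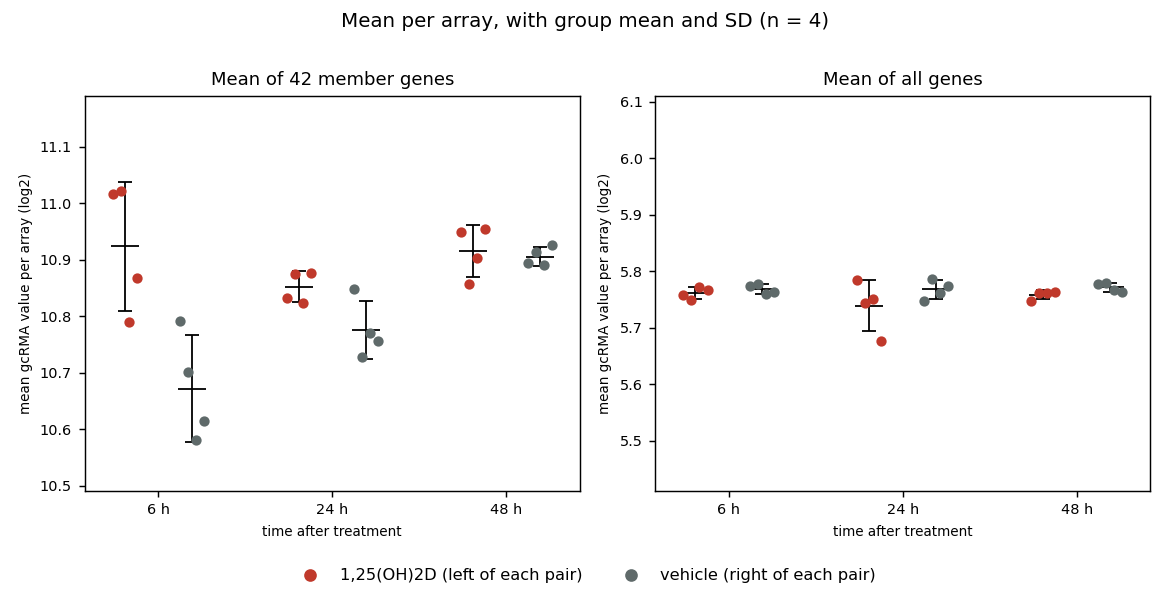
Mean gcRMA value per array (log2, vertical axis) over the 42 members (left) and over all genes (right), with 1,25(OH)2D in red left of vehicle in grey at each time, group mean and SD in black (n = 4). The member mean is 0.252 higher with 1,25(OH)2D at 6 h and 0.010 higher at 48 h, and both panels span the same range.

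Other genes of the pathway were counted in the same way. Of 39 further NRF2 targets and partners, 33 were tested, of which 2 rose at 6 h, 3 at 24 h, and 6 rose and 4 fell at 48 h. The shares of all genes were 2.37% up at 6 h, 0.516% in either direction at 24 h, and 5.14% up and 6.87% down at 48 h. The aldo-keto reductases AKR1C1 and AKR1C2, which reduce steroids and carbonyls, rose at all 3 times, by 2.20, 3.80 and 3.38 and by 2.26, 3.83 and 3.32. AKR1C3 rose by 2.89 at 24 h and 3.18 at 48 h, and its change of 0.41 at 6 h was not called. The AKR1C genes are similar in sequence, so their probe sets may share signal and are not separate evidence. IDH1, an NADPH-forming dehydrogenase, rose by 0.74 at 48 h, PIR by 0.57 and the transferase GSTA4 by 0.47. BACH1, a repressor that competes with NRF2 at its elements, fell by 0.38 at 48 h (adjusted p = 0.0144), and ALDH3A1, ABCC4 and ABCC3 fell by 0.76, 0.49 and 0.48. Of 7 metallothioneins tested, MT1F and MT2A fell at 48 h, by 0.27 and 0.21. The median change of the 33 genes was 0.09, 0.18 and 0.09 at 6, 24 and 48 h, against 0.087, 0.16 and 0.007 for the 40 members.

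A gene's other probe sets mostly moved as the one used. Of 36 further kept probe sets of 24 members, 31 had the same sign of change at 6 h, 31 at 24 h and 27 at 48 h. Over all 76 kept probe sets of members, 7 rose at 6 h, 0 changed at 24 h, and 8 rose and 1 fell at 48 h. Among all kept probe sets on the array, 496 rose and 203 fell at 6 h. At 24 h these counts were 62 and 30, and at 48 h they were 1044 and 1462. Probe sets of 1 gene are not separate evidence, and whether those of members were called more often than others was not tested.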

How the data were processed

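Total RNA of 24 cultures of RWPE1 cells was hybridised to Affymetrix whole-genome arrays. The deposited values are log2 expression values, which the authors made by gcRMA from all 24 arrays at once (version not given in the sources used here). The 62 control probe sets were left out here. The authors kept probe sets by present calls, which were not used here. In their place the same number of probe sets was kept, those with the highest value reached by 3 of 4 arrays in at least 1 group (lowest value 3.205). Arrays have no read depth, and their number limits the precision.

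Probe sets were named by the platform annotation (41091 with 1 symbol), and 5 probe sets with a member and a second symbol were not used. The mean over members holds 42 of the 44 listed genes. Each time point was tested on 8 arrays with limma 3.58.1 (lmFit, eBayes) in R 4.3.3, and differences between times on all 24 arrays with 6 group means. P-values were adjusted over all kept probe sets by Benjamini-Hochberg. The p-values measure the spread between cultures of 1 line. The scripts were tested on simulated data. Promoters are RefSeq windows of GRCh38.p14. Tables and figures were made with Python 3.11.15.

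Per-array values are given for members called at any time, members whose groups did not overlap and differed by 0.58 or more, and TXNRD1, NFE2L2 and KEAP1. Values of other members were added where a result turned on them. The members, gene lists and tests were chosen with earlier results of these data known. Alternatives were 1 fit of all arrays, SAM (all 70 relabellings), no filter, a stricter filter, second quantile normalization, median centring, an offset of 32, trend and robust options, array weights, the replicate block, leaving out arrays, and other rules for a gene's probe sets. For calls at single times the ratio of mean linear values was also taken, without a test.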

Additional observations from a re-analysis of the deposited data

Results flagged for a closer look

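In 3 of 84 groups of 4 arrays tested, 1 array lay far from the other 3, and chance gives about 1 in 20 groups. MAFG was 7.38 in 1,25(OH)2D replicate 1 at 48 h, against 7.62 to 7.66 in the other treated cultures. SQSTM1 was 10.96 in 1,25(OH)2D replicate 4 at 24 h, against 10.60 to 10.65 in the others. HMOX2 was 11.48 in vehicle replicate 1 at 24 h, against 10.83 to 10.93. The SQSTM1 and HMOX2 arrays are 2 of the 4 that stood apart over all genes.

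The effect of 1,25(OH)2D differed between times for 5 members by limma's interaction test. Between 6 and 24 h it changed by -2.76 for TXNRD1, -1.84 for NFE2L2, -1.63 for GCLC, -0.85 for MAFF and -0.59 for MAFG. Between 6 and 48 h it changed by -2.19 for TXNRD1, -1.41 for MAFF and -1.23 for GCLC.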

How the results depend on the processing

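The 37 calls of single members had 785 values under other settings. Of these 710 kept their direction and, where tested, their call, 75 kept the direction but lost the call, and 0 changed sign. The 785 values include ratios of mean linear values for the calls at 6 and 48 h, which had no test and were judged by direction alone. The member counts moved by over 1.5 times only as follows, and the cause was not tested. Among the other settings, the share of all genes called was computed only for SAM and for the effects at 6 and 24 h without the arrays that stood apart. The other counts have no such share, so they cannot show whether members were called more often than all genes. With 1 fit of all 24 arrays, 1 member was called at 24 h and 3 at 48 h, and SAM called 5 and 11. With the offset of 32, 5 members had a different effect at 6 and 48 h. With limma's default array weights, which stopped before convergence in 2 of 4 fits, 21 were called at 24 h and 13 at 48 h. Then 10, 12 and 19 differed in effect (6 and 24 h, 6 and 48 h, 24 and 48 h), 19 changed in vehicle between 6 and 24 h and 26 between 24 and 48 h, and 23 changed with 1,25(OH)2D between 24 and 48 h. Weights estimated gene by gene, added after the data were seen, called 20, 7 and 12 members at 6, 24 and 48 h. With them 17 differed in effect at 6 and 48 h and 1 at 24 and 48 h, and the 3 counts of change in time were 18, 26 and 3. Without the 4 arrays that stood apart, 14 were called at 24 h, 6 differed in effect at 6 and 48 h, and these counts were 7, 1 and 4. The last was 1 with the mean of a gene's kept probe sets and 3 with any kept probe set. Without each array in turn, the calls ranged from 3 to 7 at 6 h and from 3 to 8 at 48 h, changes with 1,25(OH)2D from 10 to 20 between 6 and 24 h and from 0 to 6 between 24 and 48 h, and the member mean difference at 48 h from -0.003 to 0.030. That mean was -0.001 without 1,25(OH)2D replicate 1 and -0.003 without replicate 4. With the replicate number as a block 2 members were called at 48 h, GPX3 and TXNRD2, and MGST1 was lost (adjusted p = 0.0801). Deviations of same-numbered arrays from their group means correlated at 0.756, -0.366, 0.589 and 0.67 at 6 h. The range was -0.889 to 0.352 at 24 h and -0.118 to -0.009 at 48 h. Since 71.9% of the variance of these deviations lay along 1 component, they cannot settle whether the numbers pair the cultures.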
